A study of Rana omeimontis with 12 samples.

Results

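The 29 unigenes described here carry annotations worded after proteins that store, release, buffer or pump calcium in muscle and other cells. They comprise parvalbumins, ryanodine receptors, calsequestrin, sarcalumenin, triadin, junctophilins, sarcolipin, phospholamban, subunits of voltage-dependent calcium channels and calcium-transporting ATPases, and SPSB4, which shares only a domain name with the ryanodine receptor. A unigene is a cluster of transcripts of the de novo assembly, named after its best match among known proteins, so that 1 protein can be split over several unigenes. The members were chosen by the wording of that match, which 70 of the 56172 unigenes met, and by an expression of at least 1 FPKM (fragments mapped to a transcript, relative to its length and to all mapped fragments of the library) in at least 3 of the 12 libraries. The other 41 matches did not reach this level, and their highest value in any library was 2.74 FPKM. The 29 members carry 23 distinct protein names.

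RNA of the tail and liver of Rana omeimontis tadpoles was sequenced after 3 days of treatment of tadpoles at Gosner stages 30 to 31. T3 tails and T3 livers came from tadpoles kept in water with 10 nM T3 (triiodothyronine, the active thyroid hormone). Control tails and control livers came from tadpoles kept with the vehicle DMSO. Food was offered to both groups, but the paper reports that T3 tadpoles ate less and weighed less. T3 and reduced food intake therefore cannot be told apart in these comparisons. The tadpoles hatched from clutches collected in the wild and no transgene was involved. The labels call the T3 samples metamorphic and the control samples pro-metamorphic. Each of the 4 groups has 3 libraries. Neither the labels nor the methods say if a library pools tadpoles or if tail and liver share an animal, so that p-values measure the spread between these libraries.

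In skeletal muscle, depolarisation of the membrane moves the voltage sensor of the L-type calcium channel, which opens the ryanodine receptor of the sarcoplasmic reticulum. Calcium held in the reticulum by calsequestrin then flows to the myofibrils, is buffered by parvalbumin and is pumped back by the SERCA ATPase, which the small membrane protein sarcolipin inhibits. The tail muscle of a tadpole works by this cycle until the tail is resorbed under thyroid hormone at metamorphosis.

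The labelled tissues matched their markers, and libraries were of similar depth. Hepatocyte markers made up 4.0% to 11.1% of the summed FPKM of liver libraries and at most 0.00771% of tail libraries. Skeletal muscle markers made up 2.31% to 6.36% in tails and at most 0.0127% in livers. Judged from their low values, the deepest of the 12 libraries had 1.37 times the depth of the shallowest. Exocrine pancreas markers held 0.0235% to 0.629% of the FPKM of T3 livers, against 8.13%, 10.1% and 0.0400% in control livers 1, 2 and 3, so that control livers 1 and 2 stood apart. Across all unigenes tested, the median log2 fold change of T3 over control was 0.31 in the tail and -0.26 in the liver. Changes are on the log2(FPKM + 1) scale, which understates those of low genes, are given as ± SE, and are to be read against that shift.

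The members were mostly tail genes. Of the 29 members, 17 were higher in control tail than in control liver and 3 were lower, while 20.4% of all 24085 unigenes tested were higher and 22.5% were lower. In the livers 14 of these 17 never exceeded 1 FPKM and thus entered through the tail libraries, so that this count describes the set and is no test of it. Calsequestrin-1, the main calcium store of the reticulum, was the most abundant, with 2179, 3186 and 3987 FPKM in control tails against 0.16, 1.26 and 2.02 FPKM in control livers. Calsequestrin-1, sarcalumenin and the parvalbumin beta unigenes together held 76.7% to 79.1% of the members' summed FPKM in T3 tails and 77.1% to 78.5% in control tails. The 3 members lower in the tail were channel subunit beta-4, the gamma-like channel subunit and a unigene named ryanodine receptor 2-like. The remaining 9, among them SERCA2 and the calcium pumps of the Golgi apparatus, did not pass the test in either direction.

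**Figure D1:**
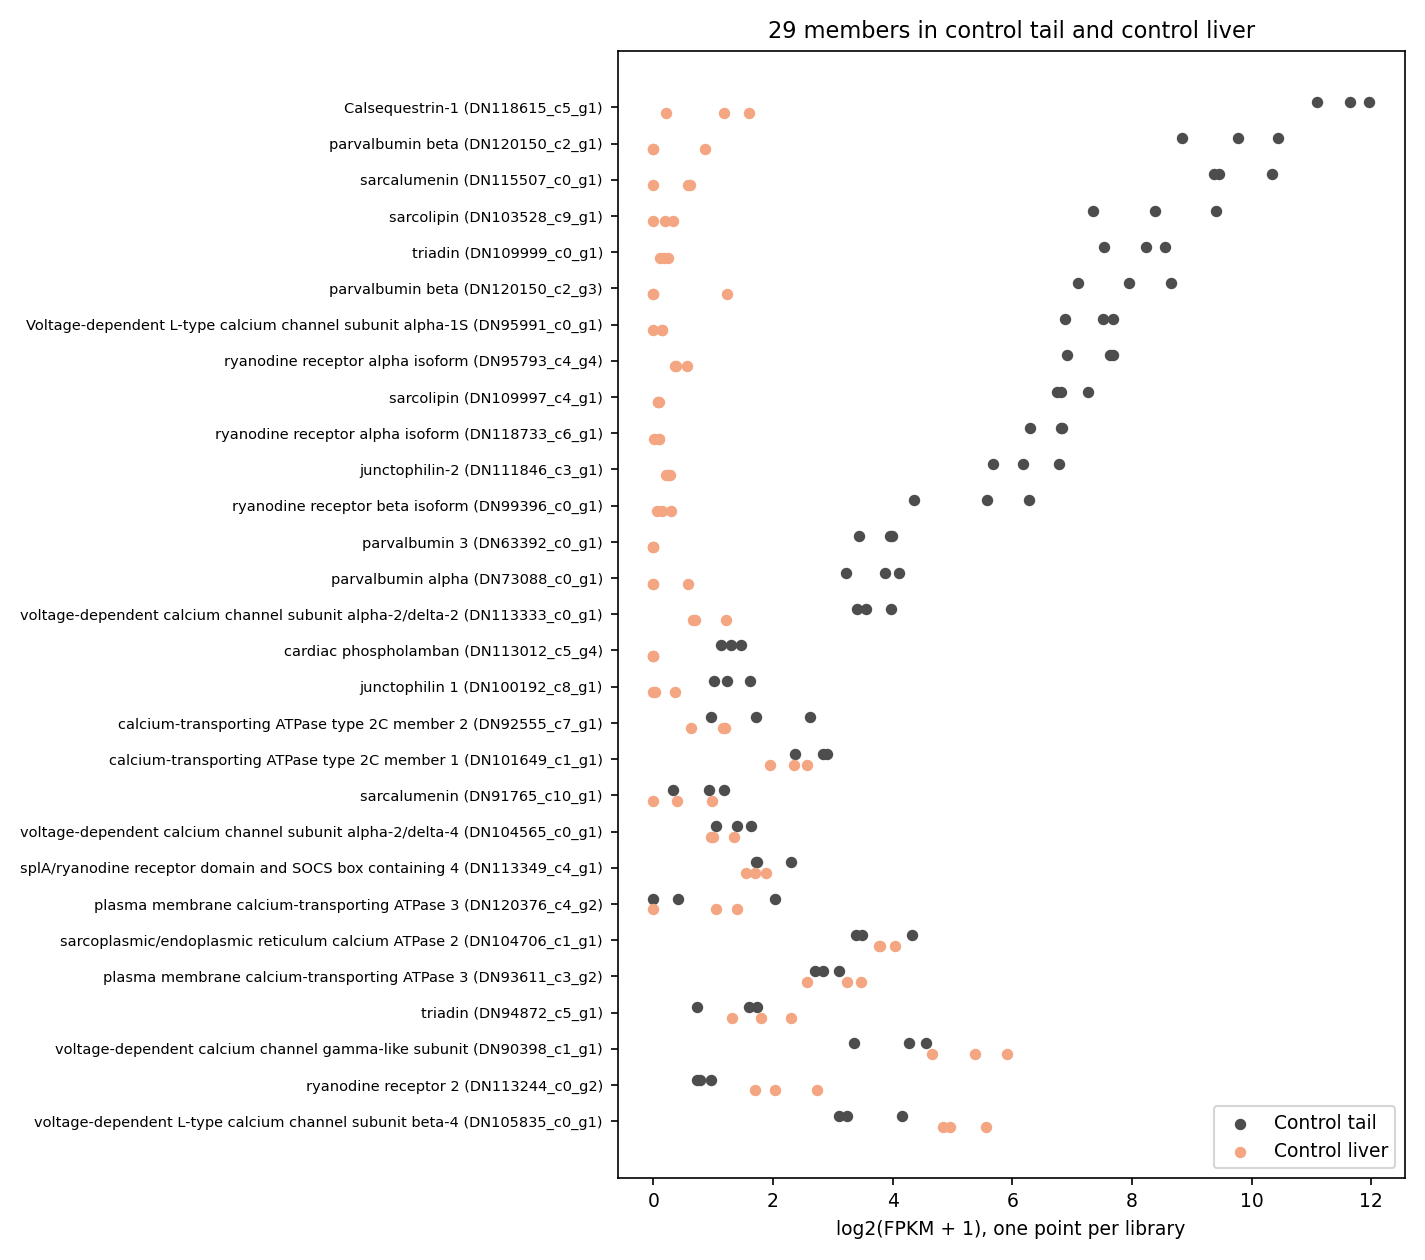
Log2(FPKM + 1) of the 29 members in the 3 control tail and 3 control liver libraries, one point per library, ordered by the difference between tissues. The upper 17 members have all tail points to the right of all liver points, and channel subunit beta-4 at the bottom has all liver points to the right.

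In the tail, more members fell than rose with T3. Of 26 members tested, 9 fell, 5 rose and 12 did not pass the test, while 6.23% of all 18429 unigenes tested fell and 19.2% rose. Those shares belong to FPKM as deposited and depend on the scaling, as given below. All 9 that fell belong to the 17 tail-rich members, of which 1 rose, cardiac phospholamban. Of the 12 other members 9 were tested in the tail, where 4 rose and 0 fell (limma, and also 0 at an unadjusted p below 0.05 in that direction). Of all 18429 unigenes tested, 7180 lay below that unadjusted p in either direction. The tail-rich members were chosen with the same control tails that T3 tails are compared with, so these counts are a description. The median log2 fold change was -0.58 over the 26 members and -0.85 over the 17 tail-rich ones. No member tested in the tail reached 1 FPKM in all 3 libraries of 1 treatment and in 0 of the other. Junctophilin 1 reached it in all 3 control tails (1.01, 1.36 and 2.07 FPKM) but only in T3 tail 1 (1.02, 0.66 and 0.29 FPKM).

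The number of calls depended on single libraries. Without control tail 1 there were 18 calls, 13 of them falls. There were 9 calls without control tail 2, 8 without control tail 3, 9 without T3 tail 1, 6 without T3 tail 2 and 8 without T3 tail 3. Control tail 1 was the lowest control for 15 of the 17 tail-rich members, and T3 tail 3 was the highest T3 tail for 10. With equal library sums the split was 5 rises to 5 falls, while 4782 of all 18429 unigenes tested rose and 820 fell. Under median-ratio scaling 2601 of all 18429 rose and 2586 fell, and under quantile normalization 2556 and 2497. Calsequestrin-1, sarcalumenin, cardiac phospholamban and the gamma-like subunit lost their calls under both, and no member gained one. The calls over all unigenes tested moved with the libraries as well. As reported, 3540 of 18429 rose and 1148 fell. Without control tail 1, 4872 of 17521 rose and 961 fell, and without T3 tail 2, 1462 of 16984 rose and 769 fell.

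Part of the muscle markers fell as well. While 6.23% of all unigenes tested in the tail fell and 19.2% rose, 18 of 52 tested skeletal muscle markers fell and 4 rose. These markers include myosin heavy chains, skeletal actin, titin and nebulin. They were listed by wording, and not all were tail-rich. In control libraries 42 of the 55 were higher in tail than in liver and 4 lower, against 20.4% and 22.5% of all unigenes tested. The summed FPKM of the 55 was 18000 to 28650 in T3 tails and 28700 to 62900 in control tails, and at most 2 were listed at 0 in any tail. Its largest part, myosin-4, had 8616 to 13144 FPKM in T3 tails and 12006 to 22548 FPKM in control tails. The summed FPKM of the 29 members was 3486, 2856 and 3939 in T3 tails and 4370, 6489 and 9060 in control tails, with no overlap. As a share of the muscle marker FPKM the same sums were 16.6%, 15.9% and 13.8% in T3 tails and 15.2%, 15.4% and 14.4% in control tails, and these ranges overlapped. In bulk samples fewer muscle fibres and less RNA per fibre cannot be told apart. When the tail libraries were scaled to equal muscle marker FPKM, 8 of the 26 members tested were called, with 6 rises and 2 falls. Of these 8, 7 were also called without the scaling, and the 2 falls were the sarcolipins. Under that scaling 5688 of all 18429 unigenes tested rose and 218 fell, and their median moved to 0.98. The 6 rises are to be read against that shift.

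**Figure D2:**
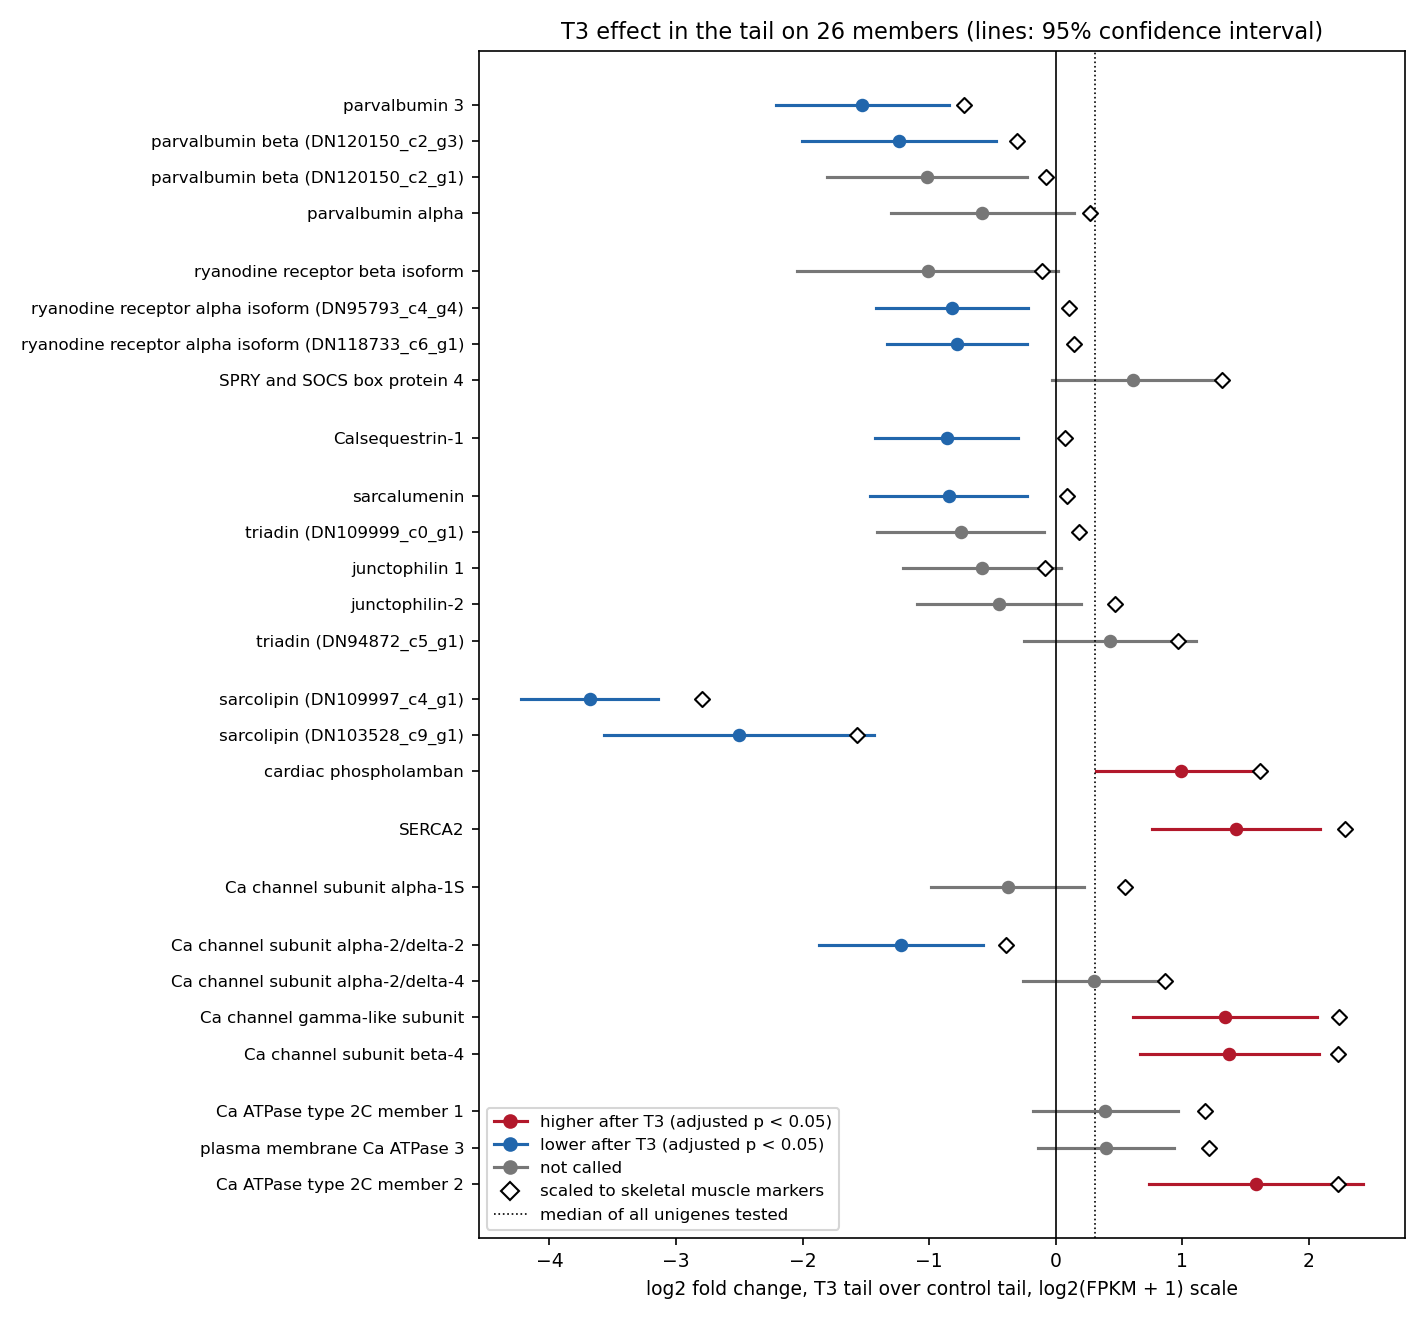
Log2 fold change of T3 tail over control tail for the 26 members tested, grouped by role, on the log2(FPKM + 1) scale, with points for the values as deposited (bars, 95% confidence intervals), open diamonds for the values scaled to skeletal muscle markers and a dotted line at the median of all unigenes tested, 0.31. The sarcolipins lie farthest to the left under both scalings.

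Parvalbumins are soluble calcium buffers that speed the relaxation of fast muscle. The parvalbumin beta unigene of highest expression (c2_g1) had 376, 352 and 504 FPKM in T3 tails and 456, 869 and 1393 FPKM in control tails. Only T3 tail 3 reached above the lowest control, control tail 1. Its log2 fold change of -1.01 ± 0.36 did not pass the test (adjusted p = 0.0594), though it did without control tail 1 (0.00548) and with a filter of 5 FPKM (0.0397). The second parvalbumin beta unigene (c2_g3) had 106, 95.0 and 101 FPKM in T3 tails and 136, 247 and 403 FPKM in control tails, and fell by 1.24 ± 0.35 (adjusted p = 0.0252). Both come from the same assembly component and kept a ratio of 0.200 to 0.283 in T3 tails and 0.284 to 0.299 in control tails, so they may be fragments that share reads and are not independent.

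Parvalbumin 3, which in the bullfrog is known from hair cells of the inner ear, had 2.32, 4.05 and 5.65 FPKM in T3 tails and 9.82, 14.5 and 14.9 FPKM in control tails. The groups did not overlap, and the unigene fell by 1.53 ± 0.31 (adjusted p = 0.00561). Its call held in 15 of 17 alternatives, the exceptions being the single-gene test of the study and the scaling to muscle markers. The single-gene test is the study's t test, run here on log2(FPKM + 1) and adjusted over all unigenes tested. The call of c2_g3 held in 9, and was lost without control tail 2 or 3 or any T3 tail (adjusted p from 0.0503 to 0.0785). Parvalbumin alpha had 5.69, 7.12 and 11.98 FPKM in T3 tails and 8.37, 13.6 and 16.2 FPKM in control tails, which overlap (-0.58 ± 0.33, adjusted p = 0.215). As a share of muscle marker FPKM the 4 parvalbumins came to 2.17% to 2.55% in T3 tails and 2.13% to 2.90% in control tails.

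Ryanodine receptors release calcium from the reticulum. Frog skeletal muscle has an alpha and a beta isoform, the counterparts of RYR1 and RYR3 of mammals. An alpha unigene (c4_g4) had 106, 78.2 and 104 FPKM in T3 tails and 120, 204 and 196 FPKM in control tails, and fell by 0.82 ± 0.27 (adjusted p = 0.0478). The other alpha unigene (c6_g1) had 61.7, 49.1 and 63.0 FPKM in T3 tails and 77.8, 112 and 113 FPKM in control tails, and fell by 0.78 ± 0.25 (adjusted p = 0.0434). In both the highest T3 tail lay below the lowest control tail. These falls lay near the threshold: they were called in 4 and 7 of 17 alternatives, were lost when any tail library other than control tail 1 was left out (adjusted p from 0.0771 to 0.199), and turned to 0.11 and 0.15 with muscle marker scaling.

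The beta isoform had 18.7, 12.8 and 32.9 FPKM in T3 tails and 19.5, 46.5 and 76.5 FPKM in control tails. T3 tail 3 lay above control tail 1, and the change of -1.01 ± 0.47 did not pass the test (adjusted p = 0.136), though it did without control tail 1 (adjusted p = 0.0163). The beta isoform thus stood at 0.164 to 0.317 of the c4_g4 alpha level in T3 tails and 0.163 to 0.390 in control tails, on the FPKM scale, which is per length. The ryanodine receptor 2-like unigene, whose best match is a fish protein, had 0.66 to 2.38 FPKM in tails and 0.92 to 5.67 FPKM in livers and was too low to test in the tail. A further 8 unigenes with that name lay below the filter.

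The L-type channel of skeletal muscle is the voltage sensor that opens the ryanodine receptor. Its pore-forming subunit alpha-1S had 126, 104 and 151 FPKM in T3 tails and 117, 204 and 183 FPKM in control tails. The groups overlapped, and the change of -0.38 ± 0.27 did not pass the test (adjusted p = 0.330, 95% confidence interval -0.98 to 0.23). Calsequestrin-1 stood at 12.6 to 14.7 times the FPKM of alpha-1S in T3 tails and 15.6 to 21.8 times in control tails.

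Inside the reticulum, calsequestrin-1 had 1849.6, 1314 and 1900.4 FPKM in T3 tails and 2179, 3186 and 3987 FPKM in control tails. No T3 tail reached the lowest control, and the unigene fell by 0.86 ± 0.26 (adjusted p = 0.0325). Sarcalumenin, a calcium-binding glycoprotein of the reticulum lumen, had 427, 430.1 and 556 FPKM in T3 tails and 660.0, 698 and 1289 FPKM in control tails. These groups did not overlap either, and it fell by 0.85 ± 0.28 (adjusted p = 0.0478). Calsequestrin-1 was called in 6 of 17 alternatives and sarcalumenin in 4. Calsequestrin-1 lost its call without control tail 2 or 3 or T3 tail 1 or 2 (adjusted p from 0.0610 to 0.140), sarcalumenin without control tail 3 or any T3 tail (0.0623 to 0.151), and with muscle marker scaling their changes turned to 0.08 and 0.09.

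The proteins that hold the release site together had no call. Triadin, which anchors calsequestrin to the ryanodine receptor, had 155, 132 and 209 FPKM in T3 tails and 184, 299 and 373 FPKM in control tails, which overlap (-0.75 ± 0.30, adjusted p = 0.0896, and 0.0147 without control tail 1). Junctophilin-2, which ties the reticulum to the transverse tubules, had 56.4, 49.0 and 54.8 FPKM in T3 tails and 50.2, 71.8 and 108 FPKM in control tails (-0.45 ± 0.29, adjusted p = 0.281, and 0.0452 without control tail 1). Junctophilin 1, at 0.29 to 1.02 FPKM in T3 tails and 1.01 to 2.07 FPKM in control tails, also did not pass the test (-0.58 ± 0.28, adjusted p = 0.153). Low second unigenes of triadin, at 0.66 to 2.97 FPKM in tails, and of sarcalumenin, at 0 to 1.52 FPKM, had no call.

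**Figure D3:**
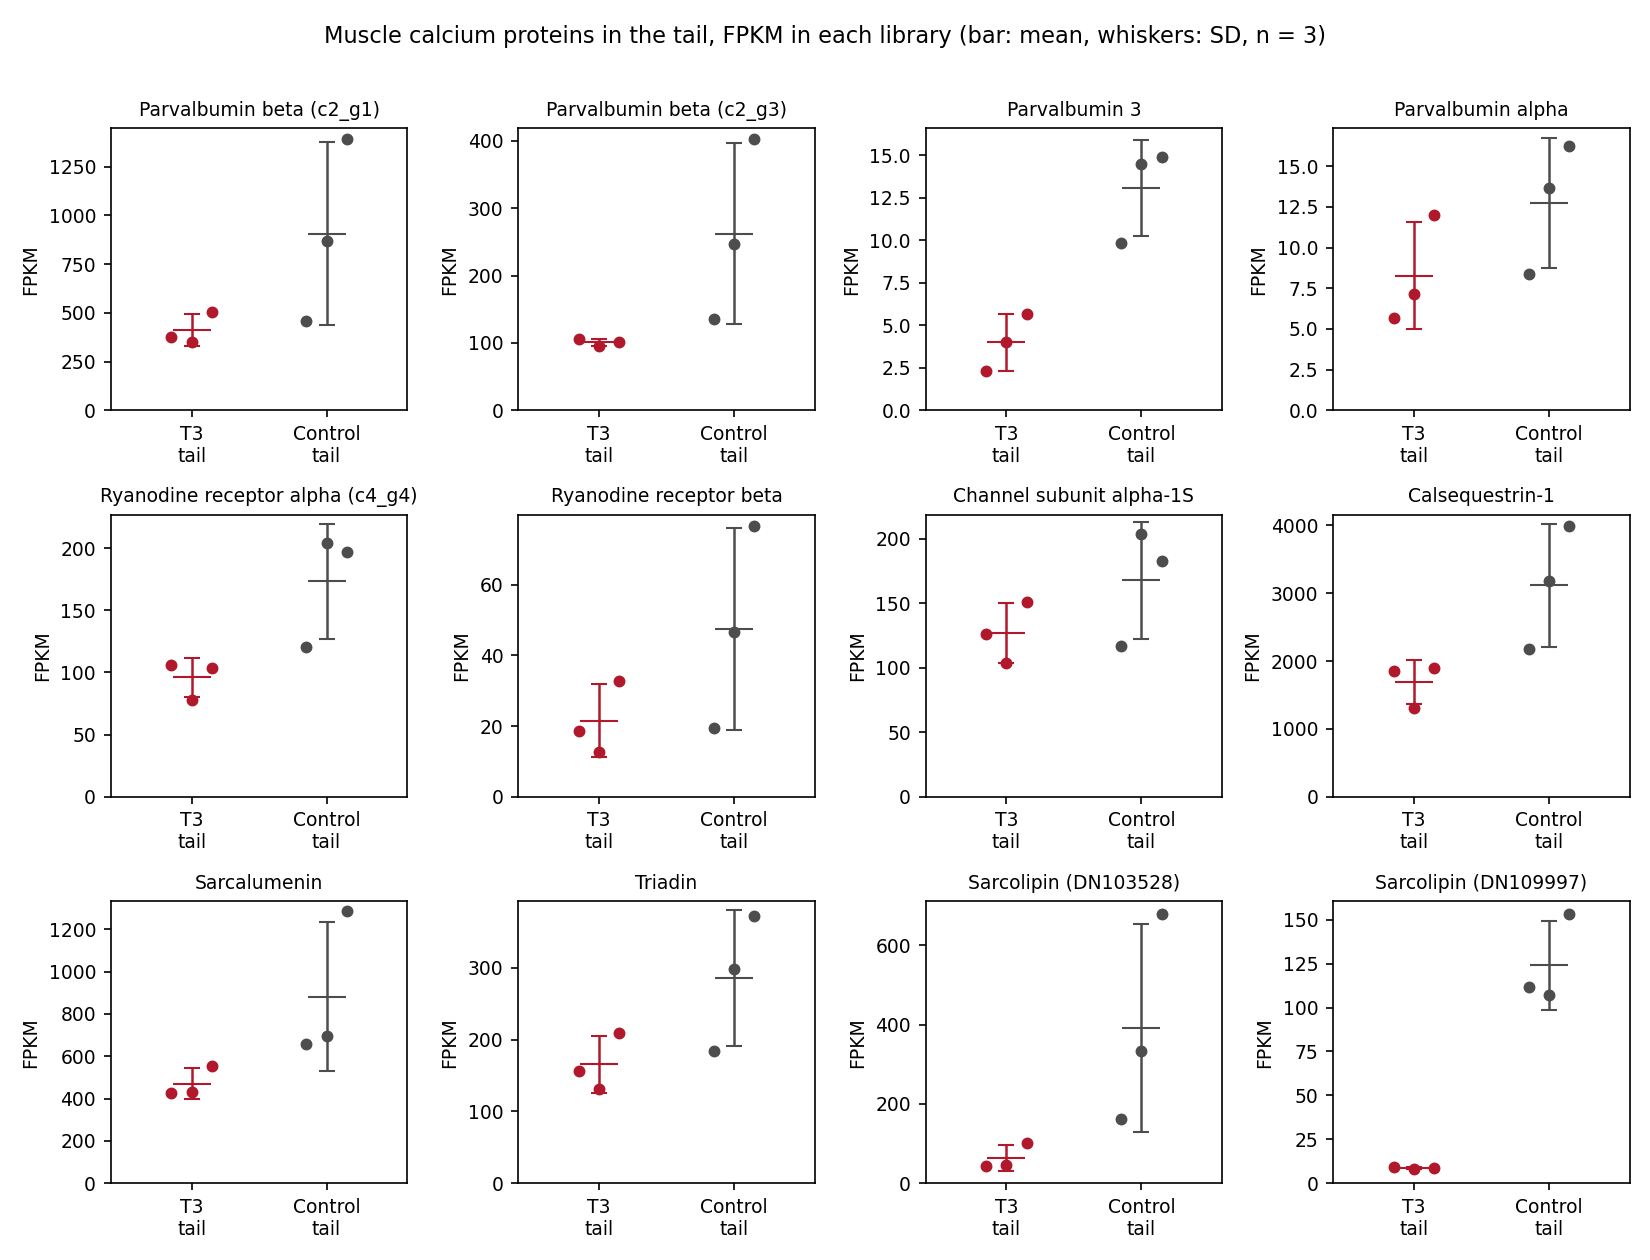
FPKM in each tail library for 12 members of the release, storage and buffering machinery, T3 tails in red and control tails in dark grey, with the mean as a bar and the SD as whiskers (n = 3 each) and all axes starting at 0. Both sarcolipins show every T3 tail below every control tail, at 7.86 to 9.19 FPKM against 107 to 153 FPKM for DN109997 and 43.1 to 101 FPKM against 162 to 679 FPKM for DN103528, while subunit alpha-1S shows overlapping groups.

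The largest changes among the members were in sarcolipin, the small inhibitor of the SERCA pump. The unigene DN109997 had 9.19, 7.86 and 8.83 FPKM in T3 tails and 112, 107 and 153 FPKM in control tails. Every T3 tail lay far below the lowest control, and the log2 fold change was -3.68 ± 0.25 (adjusted p = 4.5e-06). The unigene DN103528, of a different assembly component, had 43.1, 44.7 and 101 FPKM in T3 tails and 162, 333 and 679 FPKM in control tails. Its groups did not overlap, and it fell by 2.50 ± 0.48 (adjusted p = 0.00442).

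Both sarcolipins fell relative to the summed muscle markers. Changes of single unigenes of the marker list, not all of them tail-rich, ran from -2.42 to 2.11. Both sarcolipins lay beyond the lower end of that range, DN103528 only narrowly. Changes in the larger list of sarcomere proteins, described below, ran from -2.58 to 2.63. DN103528 lay within that range and DN109997 below it. After scaling to the markers DN109997 was lower by a log2 fold change of -2.79 ± 0.64 (adjusted p = 0.000294, range over its alternatives 8.7e-07 to 0.00873). DN103528 was lower by -1.57 ± 0.59 (adjusted p = 0.0314, range 9.5e-05 to 0.102). DN109997 was called in 17 of 17 alternatives and DN103528 in 16, missing only under the single-gene test of the study. The ratio of DN103528 to DN109997 was 4.68, 5.68 and 11.4 in T3 tails and 1.45, 3.11 and 4.43 in control tails, with no overlap.

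Cardiac phospholamban, the inhibitor of the SERCA2 pump in heart muscle, moved the other way at a much lower level. It had 2.55, 6.38 and 3.49 FPKM in T3 tails and 1.77, 1.19 and 1.46 FPKM in control tails, and rose by 0.99 ± 0.30 (adjusted p = 0.0362). The groups did not overlap, but the rise was called in 8 of 16 alternatives and was lost without control tail 2 or 3 or T3 tail 2 or 3 (adjusted p from 0.0627 to 0.167). Sarcolipin and phospholamban together came to 0.260% to 0.394% of muscle marker FPKM in T3 tails and 0.960% to 1.33% in control tails.

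SERCA2, the reticulum calcium pump of heart, slow muscle and most other cells, rose in both tissues. In tails it had 38.0, 38.5 and 28.2 FPKM with T3 and 19.0, 10.2 and 9.44 FPKM in controls (log2 fold change 1.42 ± 0.30, adjusted p = 0.00695). In livers it had 70.7, 37.6 and 30.5 FPKM with T3 and 15.4, 12.6 and 12.8 FPKM in controls (1.61 ± 0.32, adjusted p = 0.0205). Neither tissue showed an overlap between groups, and the difference between the tissues' changes was -0.19 with a 95% confidence interval from -1.16 to 0.79. The tail call held in 16 of 17 alternatives, all except the single-gene test of the study. The liver call held in 12 of 17 and was lost without any 1 of the control livers (adjusted p from 0.0579 to 0.0773).

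Markers of smooth muscle also moved in both tissues. Transgelin, an actin-binding protein of smooth muscle, had 342, 283 and 371 FPKM in T3 tails and 41.1, 47.5 and 30.2 FPKM in control tails and rose by 3.05 (adjusted p = 1.9e-05). In livers transgelin had 42.1, 60.1 and 38.0 FPKM with T3 and 7.52, 9.03 and 7.39 FPKM in controls. It rose there by 2.39 (limma, adjusted p = 0.0015). Of 5 smooth muscle markers tested in the liver 2 rose and 0 fell, against 3.83% and 8.67% of all unigenes tested. While 19.2% of all unigenes tested in the tail rose and 6.23% fell, 3 of 7 smooth muscle markers rose there and 0 fell in limma. The sum of the 7, 1435 to 2479 FPKM in T3 tails and 1579 to 4834 FPKM in control tails, was carried by 1 actin unigene of the same assembly component as the cardiac actins. Without it, a choice made after the values were seen, the other 6 summed to 318 to 404 FPKM in T3 tails and 38.6 to 60.2 FPKM in control tails, with no overlap. Most of that sum was transgelin, so it adds little to that gene. The actin unigene (-0.996 ± 0.39, adjusted p = 0.0827) and myosin-11 (0.91 ± 0.38, adjusted p = 0.103) did not pass the limma test, and both overlapped between treatments. Cardiac muscle markers summed to 808 to 1800 FPKM in T3 tails and 1342 to 4558 FPKM in control tails, with 1 of 7 higher, phospholamban itself, and 1 lower. Most of that cardiac sum was 1 alpha cardiac actin unigene, at 627 to 1536 FPKM in T3 tails and 958 to 3966 FPKM in control tails. The part of these markers in the SERCA2 result was not tested.

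The pump of fast skeletal muscle, SERCA1, is mostly annotated in this assembly as Ca2+-ATPase 1, which the wording that chose the members does not cover, while 2 unigenes worded as SERCA1 lay below the filter. It was looked up with 4 subunits of the muscle channel and a further pump after their values had been seen, and these 9 unigenes are described apart. Of 4 SERCA1 unigenes of a single assembly component, the highest had 12848, 8715 and 10799.6 FPKM in T3 tails and 15653, 15320.5 and 15992 FPKM in control tails. It lay below every control in each T3 tail and fell by 0.56 ± 0.18 (adjusted p = 0.0469), but it was called in only 3 of 17 alternatives (adjusted p from 0.0254 to 0.467) and lost its call whichever single library was left out (0.0543 to 0.216). The sign turned with muscle marker scaling (0.38) and quantile normalization (0.24). Another SERCA1 unigene (c4_g1) fell by 0.62 ± 0.19 (adjusted p = 0.0395) and was called in 5 of 17 alternatives (adjusted p from 0.0294 to 0.538), in none of those that left out a library, and the remaining ones had changes of -0.53 and -0.47 that did not pass the test.

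SERCA2 was a minor pump of the tail beside SERCA1. By FPKM it stood at 0.295%, 0.442% and 0.262% of the highest SERCA1 unigene in T3 tails and at 0.121%, 0.0665% and 0.0590% in control tails. These shares did not overlap. The gamma subunit of the muscle L-type channel, also found by the later search, had 292, 259 and 234 FPKM in T3 tails and 166, 115 and 103 FPKM in control tails and rose by 1.05 ± 0.25 (adjusted p = 0.0120, lost without T3 tail 1 or 2 at 0.0614 and 0.0515). Its ratio to alpha-1S was 2.32, 2.49 and 1.55 in T3 tails and 1.42, 0.564 and 0.564 in control tails. The beta subunit (-0.65 ± 0.27, adjusted p = 0.0953), the alpha2e/delta subunit (-0.45 ± 0.28, adjusted p = 0.263) and gamma subunit 6 (0.44 ± 0.31, adjusted p = 0.311) did not pass the test, nor did the pump annotated as ubiquitous, SERCA3 in mammals (-0.14 ± 0.26, adjusted p = 0.713).

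**Figure D4:**
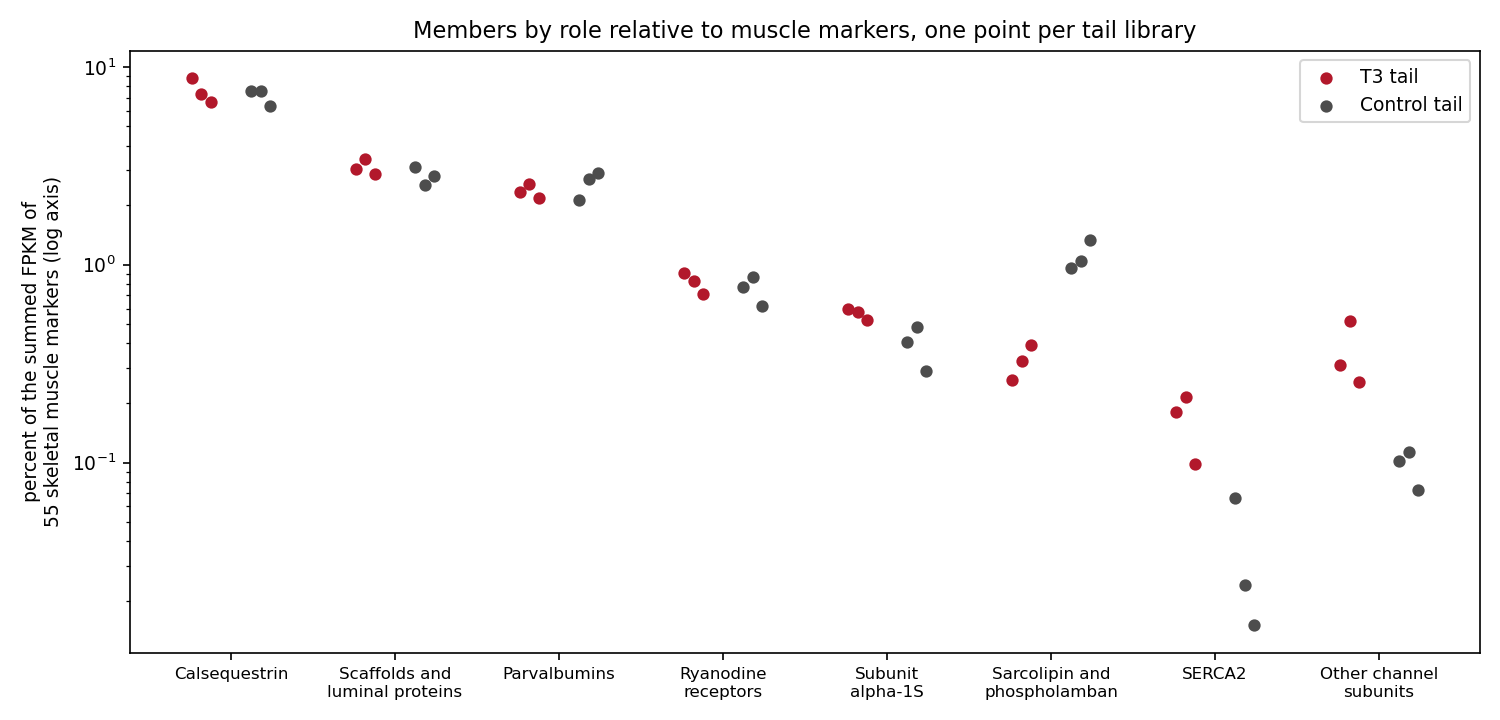
Summed FPKM of the members by role as a percentage of the summed FPKM of 55 skeletal muscle markers, one point per tail library on a log axis, T3 tails in red and control tails in dark grey. The plasma membrane and Golgi calcium pumps are not drawn. Calsequestrin, scaffolds, parvalbumins and ryanodine receptors (which include SPSB4 here) overlap between treatments. Sarcolipin with phospholamban is lower in T3 tails (0.260% to 0.394% against 0.960% to 1.33%), and SERCA2, alpha-1S and the other channel subunits are higher. Scaled to the markers, alpha-1S did not pass the limma test (0.55 ± 0.59, adjusted p = 0.429), and the median of all unigenes tested was 0.98.

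Among the other channel subunits, 2 rose and 1 fell in the tail. The gamma-like subunit, a membrane protein related to the gamma subunits, had 33.6, 49.6 and 42.2 FPKM in T3 tails and 9.27, 18.4 and 22.5 FPKM in control tails, and rose by 1.34 ± 0.33 (adjusted p = 0.0143). Subunit beta-4, a cytoplasmic subunit best known from brain, had 24.2, 35.8 and 25.8 FPKM in T3 tails and 8.42, 16.8 and 7.55 FPKM in control tails, and rose by 1.37 ± 0.32 (adjusted p = 0.0112). Neither gene had overlapping groups. Both calls were lost without T3 tail 2 (adjusted p = 0.0646 and 0.0564) and under the single-gene test of the study. The gamma-like subunit also lost its call under median-ratio scaling and quantile normalization.

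Subunit alpha-2/delta-2, which helps to bring channels to the membrane, had 5.34, 5.35 and 2.83 FPKM in T3 tails and 9.53, 10.8 and 14.8 FPKM in control tails. It fell by 1.22 ± 0.29 without overlap (adjusted p = 0.0124), a call lost without T3 tail 3 (adjusted p = 0.0571) and with muscle marker scaling. Alpha-2/delta-4 had 2.01 to 2.32 FPKM in T3 tails and 1.06 to 2.11 FPKM in control tails (0.31 ± 0.26, adjusted p = 0.40). Neuron markers, which could accompany beta-4, had 2 of 15 tested unigenes higher and 0 lower in the tail, against 19.2% and 6.23% of all unigenes. The neuron markers summed to 116 to 155 FPKM in T3 tails and 97.1 to 126 FPKM in control tails. The most abundant of them, extended synaptotagmin-1, matched by wording and was among those higher (1.21, adjusted p = 0.0256). It had 1.72 to 12.6 FPKM in livers too, so it does not mark neurons alone. Medium and light neurofilament did not pass the test (0.19, adjusted p = 0.622, and -0.21, adjusted p = 0.552). The part of the neuron markers in the result was not tested.

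Of the pumps outside the reticulum, ATPase type 2C member 2 rose. This calcium and manganese pump of the Golgi apparatus, in mammals typical of secretory epithelia, had 11.8, 8.19 and 8.10 FPKM in T3 tails and 5.14, 2.30 and 0.96 FPKM in control tails. All T3 tails lay above all controls, and the change was 1.58 ± 0.38 (adjusted p = 0.0130, called in 16 of 17 alternatives). Epidermis markers, the other large compartment of the tail, summed to 3972 to 6885 FPKM in T3 tails and 2614 to 5313 FPKM in control tails. Of 32 epidermis markers 13 were higher and 9 lower, against 19.2% and 6.23% of all unigenes tested. Their sum mixes large opposite changes and is no measure of the amount of epidermis. Keratin 14 had a mean of 2.23 FPKM in T3 tails and 1142 FPKM in control tails, while keratin 12 had 1322 and 5.20 FPKM. The part of these markers in the result was not tested. Member 1 of the same family (0.39 ± 0.26, adjusted p = 0.284) and plasma membrane ATPase 3, which exports calcium from the cell (0.40 ± 0.24, adjusted p = 0.247), lay higher in every T3 tail than in any control but did not pass the test. A further plasma membrane ATPase 3 unigene was listed at 0 in all T3 tails and had 0, 3.11 and 0.33 FPKM in control tails, too few for a test.

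In the liver 11 members were tested, 2 rose and 0 fell, while 3.83% of all 18923 unigenes tested rose and 8.67% fell. At an unadjusted p below 0.05 limma gave 4 rises and 0 falls among the 11 members. Of all 18923 unigenes tested, 5669 lay below that p in either direction. The single-gene test of the study, adjusted here over all unigenes tested, called 0 members, and 270 rises and 630 falls among all unigenes. Beside SERCA2 the other rise was SPSB4, an adaptor of a ubiquitin ligase that matched the wording only because its SPRY domain is named after the ryanodine receptor. It had 19.0, 35.3 and 6.10 FPKM in T3 livers and 2.24, 1.94 and 2.70 FPKM in control livers, and rose by 2.40 ± 0.54 (adjusted p = 0.0304). In tails it had 4.38, 6.84 and 3.60 FPKM with T3 and 3.93, 2.30 and 2.33 FPKM in controls (0.61 ± 0.29, adjusted p = 0.147). It is no calcium-handling protein, and the difference between its tail and liver changes, -1.78 ± 0.65, missed the threshold (adjusted p = 0.0730). That difference was called under median-ratio scaling (0.0400), quantile normalization (0.0287) and without T3 liver 3 (0.00478).

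The liver calls rested on few libraries. SPSB4 lost its call when any liver library except T3 liver 3 was left out (adjusted p from 0.0512 to 0.0943). The number of calls was 0 without control liver 1, 2 or 3, 1 without T3 liver 1 or 2 and 2 without T3 liver 3. Over all unigenes tested, 725 rose and 1640 fell as reported. Without control liver 1, 2 or 3 the rises were 348, 356 and 320 and the falls 419, 334 and 317. Without control livers 1 and 2, which were rich in pancreas transcripts, a single control library was left, which limma assumes to vary like the T3 livers. The changes were then 1.68 for SERCA2 (adjusted p = 0.247) and 2.22 for SPSB4 (adjusted p = 0.327), with 0 calls. The SERCA2 level of control liver 3, which was low in pancreas transcripts (0.0400%), was 12.8 FPKM and lay between those of the other controls.

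In control livers the members of highest expression were the gamma-like and beta-4 subunits, while in T3 livers it was SERCA2. The gamma-like subunit had 27.5, 30.6 and 19.3 FPKM in T3 livers and 24.2, 40.6 and 58.8 FPKM in control livers (-0.59 ± 0.34, adjusted p = 0.289). Beta-4 had 34.0, 21.7 and 33.4 FPKM in T3 livers and 30.01, 46.3 and 27.8 FPKM in control livers (-0.21 ± 0.28, adjusted p = 0.649). Both genes overlapped between treatments there. Plasma membrane ATPase 3 had 4.01 to 12.3 FPKM in T3 livers and 4.90 to 10.1 FPKM in control livers (-0.14 ± 0.41, adjusted p = 0.855). Member 2 of the type 2C pumps had 2.01, 2.68 and 2.52 FPKM in T3 livers and 1.29, 1.25 and 0.55 FPKM in control livers, without overlap, but at an adjusted p of 0.0894 (0.76 ± 0.25) it did not pass the test.

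**Figure D5:**
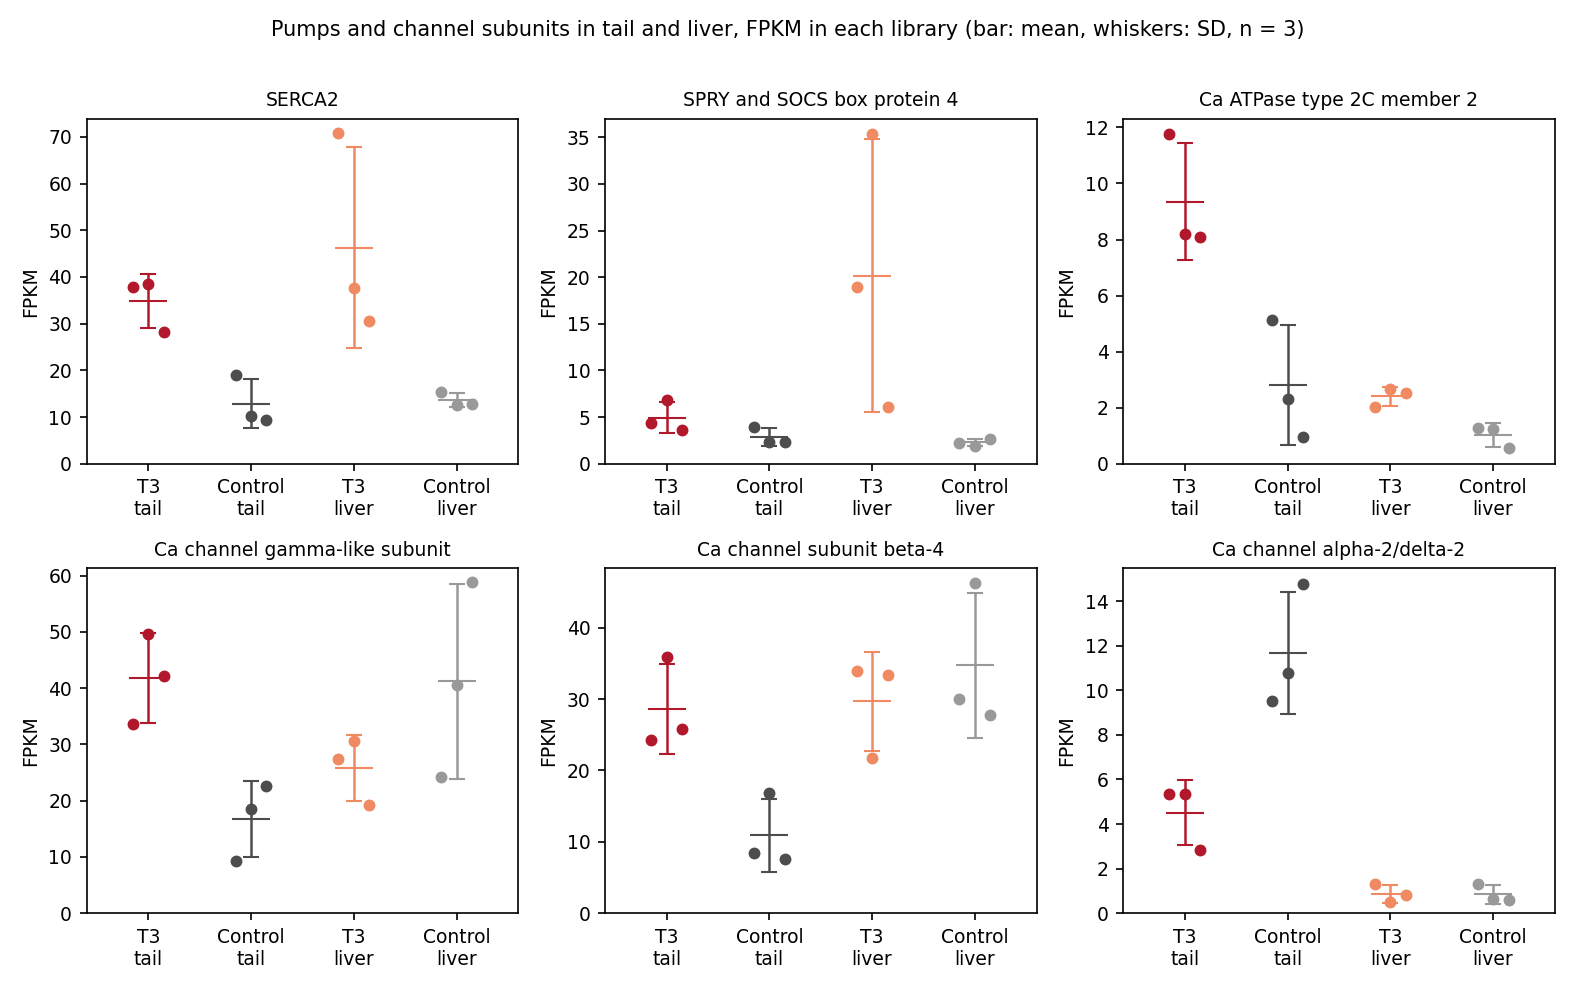
FPKM of 6 members in each library of T3 tail, control tail, T3 liver and control liver, with the mean as a bar and the SD as whiskers (n = 3 each) and all axes starting at 0. SERCA2 is higher with T3 in both tissues, the gamma-like and beta-4 subunits are higher with T3 in the tail while the liver groups overlap, and T3 livers of the SPRY and SOCS box protein spread over 6.10 to 35.3 FPKM.

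For 6 of the 29 members tail and liver responded differently to T3, with 2 more positive and 4 more negative in the tail, while 14.3% of all unigenes tested were more positive and 3.48% more negative. The gamma-like subunit (1.93 ± 0.50, adjusted p = 0.0213) and beta-4 (1.58 ± 0.44, adjusted p = 0.0284) had a more positive effect in the tail. Both sarcolipins (-3.73 ± 0.28, adjusted p = 4.3e-06, and -2.46 ± 0.62, adjusted p = 0.0180), parvalbumin 3 (-1.65 ± 0.38, adjusted p = 0.0122) and alpha-2/delta-2 (-1.24 ± 0.40, adjusted p = 0.0485) had a more negative one. The last 4 were low in the liver, at no more than 1.33 FPKM in any liver library, so their differences rest on the tail. Without control tail 1 there were 11 such members and without T3 tail 2 there were 2. Of all unigenes tested, 4818 of 23612 were more positive and 773 more negative without control tail 1. Without T3 tail 2 these were 1559 and 590 of 23332. Under median-ratio scaling and quantile normalization 5 members differed, 0 more positive and 5 more negative in the tail. Of all 24085 unigenes tested, 1159 were then more positive and 1696 more negative under the scaling, and 1416 and 1447 under the normalization.

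Lists of related genes, worded from annotations, place these values among the rest of calcium signalling and muscle. Their tail counts are to be read beside the 19.2% of all unigenes tested that rose and the 6.23% that fell. These shares hold for FPKM as deposited and evened out under median-ratio scaling. Of 112 sarcomere protein unigenes tested in the tail, 33 fell and 13 rose (median -0.57), and this list shares unigenes with the muscle markers. The most abundant were myosin-4, the fast myosin heavy chain, with 10590 ± 2317 FPKM in T3 tails and 17250 ± 5271 FPKM in control tails (SD, n = 3 each, adjusted p = 0.0664), and troponin T, which fell by 1.21 (adjusted p = 0.00959). Of 18 unigenes worded after other families of calcium-binding proteins 6 rose and 4 fell (median 0.28). Fast skeletal troponin C, the calcium sensor of the thin filament, fell by 1.45 (adjusted p = 0.00725). Protein S100-A10, listed by its family name and not for a known calcium binding of its own, fell by 1.46 (adjusted p = 0.00520).

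Genes of the nerve-muscle contact fell in part. Of 10 unigenes of excitation, 4 fell and 1 rose, while 6.23% of all unigenes tested fell and 19.2% rose. The muscle sodium channel type 4 had 29.3 ± 4.66 FPKM in T3 tails and 32.1 ± 11.8 FPKM in control tails (SD, n = 3 each, adjusted p = 0.849), while the acetylcholine receptor beta subunit, part of the receptor that answers the motor nerve, fell by 1.68 (adjusted p = 0.0126). Of 32 calcium signalling enzymes 6 rose and 4 fell (median 0.10), and the 18.8% that rose lay near the 19.2% of all unigenes tested. Calpain-8, a calcium-dependent protease, fell by 1.82 (adjusted p = 0.000842), and myosin light chain kinase 3 rose by 2.52 (adjusted p = 0.000220). Of 10 unigenes of calcium exchange outside the reticulum 2 rose, near the share of all unigenes, and 0 fell in limma (median 0.16). The most abundant of them, mitochondrial calcium uptake protein 1 (0.29, adjusted p = 0.384) and the mitochondrial calcium uniporter (0.03, adjusted p = 0.951), did not pass the test.

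The release and entry partners had calls in both tissues. The T3 effect differed between tissues for 8 of 19, with 1 more positive and 7 more negative in the tail. Of all unigenes tested 14.3% were more positive and 3.48% more negative. In the tail 9 partners were tested, 2 fell and 0 rose in limma (median -0.05), while 6.23% of all unigenes tested fell and 19.2% rose. The ryanodine receptor partner FKBP1A had 597 ± 26.9 FPKM in T3 tails and 557 ± 103 FPKM in control tails (SD, n = 3 each, adjusted p = 0.718), and stromal interaction molecule 1, the sensor of the calcium store, did not pass the test (0.47, adjusted p = 0.226). The cation channel TRIC-A of the reticulum membrane fell by 1.48 (adjusted p = 0.00301). In the liver 17 partners were tested, 10 rose and 1 fell, while 3.83% of all unigenes tested rose and 8.67% fell. All 10 rises were unigenes of the inositol trisphosphate receptor, the release channel of non-muscle cells, of which 11 were tested, and their changes ran between 1.09 and 2.22. These 10 had 1.04 to 24.9 FPKM in T3 livers and 0 to 2.0 FPKM in control livers, and since they carry the name of 1 receptor type they may be fragments that are not independent. Each reached the filter of 1 FPKM in every T3 liver, the group where it was high, so this count is a description. FKBP1A was the fall, by 0.87 in the liver (adjusted p = 0.0113).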

How the data were processed

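For each treatment 3 liver and 3 tail libraries were sequenced. The authors assembled the reads with Trinity, annotated unigenes against the NR protein database, mapped reads with Bowtie and RSEM and deposited FPKM, from which no read was remapped here. FPKM holds no counts, so count models were not used and counting error is unknown. The table has 0 columns of values without a sample.

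Unigenes that reached 1 FPKM in 3 or more libraries of a comparison were tested on log2(FPKM + 1) with limma 3.58.1 (R 4.3.3, intensity trend), T3 over control within each tissue. Differences between tissues, and tail over liver in controls, came from one model of the 4 group means. P-values were adjusted by Benjamini-Hochberg over all unigenes tested, and an adjusted p below 0.05 was called. The procedure was tested on simulated data. Tables and figures used Python 3.11.15, pandas 2.3.3, numpy 2.4.6 and matplotlib 3.10.9.

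The members and gene lists were chosen with earlier results of these data known. Named are, for each of the 20 proteins highest in the tail, the 5 highest in the liver and each protein called, the unigene of highest expression, every member whose T3 effect differs between tissues, and for each pathway list its most abundant genes. TRIC-A, transgelin and the genes of the SERCA1 search lie outside this rule and were named after their values were seen. Alternatives were other pseudocounts, filters, scalings and test settings, the study's stated test gene by gene, a replicate block, 1 unigene per protein, and leaving out libraries. The study's t test was run on log2(FPKM + 1) with the same adjustment, neither of which its methods state. No batch is named in the labels used here.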

Additional observations from a re-analysis of the deposited data

Results flagged for a closer look

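For 6 members the test of the difference found a T3 effect in the tail unlike that in the liver (limma, adjusted over all unigenes tested). The difference, tail minus liver on the log2 scale, was -3.73 for sarcolipin DN109997, -2.46 for sarcolipin DN103528, -1.65 for parvalbumin 3 and -1.24 for subunit alpha-2/delta-2, all of which had too low a level in the liver for a test within it. It was 1.93 for the gamma-like subunit, with changes of 1.34 in the tail and -0.59 in the liver, and 1.58 for subunit beta-4, with 1.37 in the tail and -0.21 in the liver. Alpha-2/delta-2 lay nearest to the threshold (adjusted p = 0.0485) and lost its call in 9 of 12 fits that left out a library. Beta-4 lost it in 4 of 12, and the gamma-like subunit and DN103528 without T3 tail 2 (adjusted p = 0.0620 and 0.0541). Neither the gamma-like nor the beta-4 difference was called under median-ratio scaling or quantile normalization.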

How the results depend on the processing

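The number of members called in the tail was 14, and it was 8 without a filter, 8 when scaled to skeletal muscle markers and 1 with the study's test gene by gene. That test was adjusted here over all unigenes tested, which the study does not state for its t tests, so this count is not the study's own. Over all unigenes tested, 1391 of 18429 rose and 385 fell with that test. Without a filter 2073 of 48948 rose and 677 fell. Leaving out 1 library gave 6 to 18 calls in the tail, 0 to 2 in the liver, 2 to 11 for the difference between tissues and 18 to 21 for tail over liver in controls. In the liver the 2 calls became 1 without a filter, 0 with the gene-by-gene test and 0 without control livers 1 and 2, which leaves 1 control library. The 6 differences between tissues became 3 with a pseudocount of 0.1. Under scaling to skeletal muscle markers, 4 falls in the tail changed sign, to 0.11 and 0.15 for the ryanodine receptor alpha unigenes c4_g4 and c6_g1, 0.075 for calsequestrin-1 and 0.0895 for sarcalumenin. The cause of these changes was not tested. No other called member changed sign under any alternative.

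With a replicate block 14 members were called in the tail, 12 of them the same as without it, 2 in the liver, 5 for the difference and 20 for tail over liver. The labels do not say that the numbers join samples. Deviations of same-numbered T3 and control tails correlated at 0.048, 0.032 and 0.073, and those of livers at 0.238, 0.072 and 0.149. Control tails and control livers of the same number correlated at 0.095, 0.190 and 0.085, and of different numbers at -0.143 to 0.041. For T3 tails and T3 livers these were 0.088, -0.066 and 0.191, and -0.230 to 0.119. Whether tail and liver share an animal remains unknown.

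FPKM gives no read depth per unigene, 3 libraries a group leave calls near the threshold to single libraries, and reads shared by unigenes of 1 component cannot be separated.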
